A study of Mus musculus with 2 samples.

Results

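Of 14351 tumor mononuclear phagocytes (TMPs) of B16 melanoma, 1288 carried at least 3 transcripts of pigment cell genes. They were chosen by measured values: the summed unique molecular identifiers (UMIs, each a tag of 1 captured RNA molecule) of Pmel, Dct, Mlana, Tyrp1 and Tyr had to reach 3, in cells with 200 to 7000 genes and at most 30% mitochondrial UMIs. The Fcmr+/+ library held 526 of these cells, here called members, among 6352 cells, and the Fcmr-/- library held 762 among 7999. The study sorted MerTk+ CD64+ cells from B16 tumors and made 1 droplet-based 3′ library from littermate Fcmr+/+ mice and 1 from Fcmr-/- mice. In the Fcmr-/- mice the Fcmr gene, encoding a receptor for the Fc part of IgM, is deleted in the germline. The paper names C57Bl/6 for the mice it purchased for other experiments, and its methods name no strain for these littermates. No other allele or treatment was named for either group, the mouse ages and the number of mice in a library are not given in the sources used here, and B16 is a transplanted line and not a tumor arising in the mouse. With 1 library per genotype no test was possible. Differences between genotypes cannot be told apart from differences between libraries, and intervals are exact 95% intervals that cover counting error only.

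Tyr, Tyrp1 and Dct encode enzymes of melanin synthesis, Pmel encodes the protein of the fibrils on which melanin is laid down, and Mlana encodes a protein of the melanosome, the organelle in which this happens. All are hallmarks of the melanocyte lineage, to which B16 belongs, and macrophages are not known for making them. Macrophages engulf dying cells and their debris and digest them in lysosomes. In single-cell data, transcripts of another cell type can also come from 2 cells in a droplet or from free RNA.

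The lineage's regulator Mitf binds the M-box, an element in promoters of pigment genes. The promoters are shown because the members were chosen by genes of this lineage. Of the 5 genes, 3 were matched by symbol in the RefSeq promoter table of GRCm38.p6 (250 bases before to 50 after the start site), and Pmel and Mlana were not matched. The letters TCATGTG, searched on both strands, are in capitals in these stretches, each read 5′ to 3′ on the gene's strand.
Tyrp1, chr4:80834139-80834198, plus strand: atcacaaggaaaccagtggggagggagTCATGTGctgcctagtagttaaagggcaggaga
Tyr, chr7:87493513-87493561, minus strand: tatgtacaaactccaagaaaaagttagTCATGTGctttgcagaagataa
Dct, chr14:118052365-118052424, minus strand: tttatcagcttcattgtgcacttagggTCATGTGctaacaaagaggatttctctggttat
The match shown began 47 bases before the start site of Tyrp1, 22 before that of Tyr and 151 before that of Dct, all by the RefSeq start sites. The gene spans given further on are from GENCODE, in which Tyrp1 starts upstream of the RefSeq site, so the stretch shown lies inside that span. Tyrp1 and Tyr each had 1 match in the window and Dct had 2. The same letters were in 4.31% of 27025 promoters of this length. A match is a description and not evidence of binding.

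The libraries held 131062107 UMIs (Fcmr+/+) and 125802196 UMIs (Fcmr-/-), with medians of 17973.5 and 12911 UMIs per cell kept. They had 73 cell barcodes in common, of which 9 marked Fcmr+/+ members and 5 marked Fcmr-/- members. Fcmr itself gave 0 UMIs in the Fcmr+/+ members and 2 in the Fcmr-/- members, among 7 and 6 UMIs over all cells kept. These counts are too low to check the genotypes, and whether 3′ tags lie in the deleted stretch is not given in the sources used here.

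Members made up 8.28% (7.61 to 8.99) of Fcmr+/+ cells and 9.53% (8.89 to 10.2) of Fcmr-/- cells. Without the barcodes found in both libraries the shares were 8.23% and 9.55%. Just inside the threshold, 254 Fcmr+/+ and 373 Fcmr-/- cells had exactly 3 of these UMIs, and just outside it 562 and 807 had 2. Cells with 10 or more were rare, 21 (0.331%) in Fcmr+/+ and 24 (0.300%) in Fcmr-/-, and 4 and 5 cells had 30 or more. There was no gap in the counts at the threshold. The members held 49.7% of all UMIs of the 5 genes in Fcmr+/+ and 54.7% in Fcmr-/-, and the other cells with 1 or 2 UMIs held the rest.

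**Figure D1:**
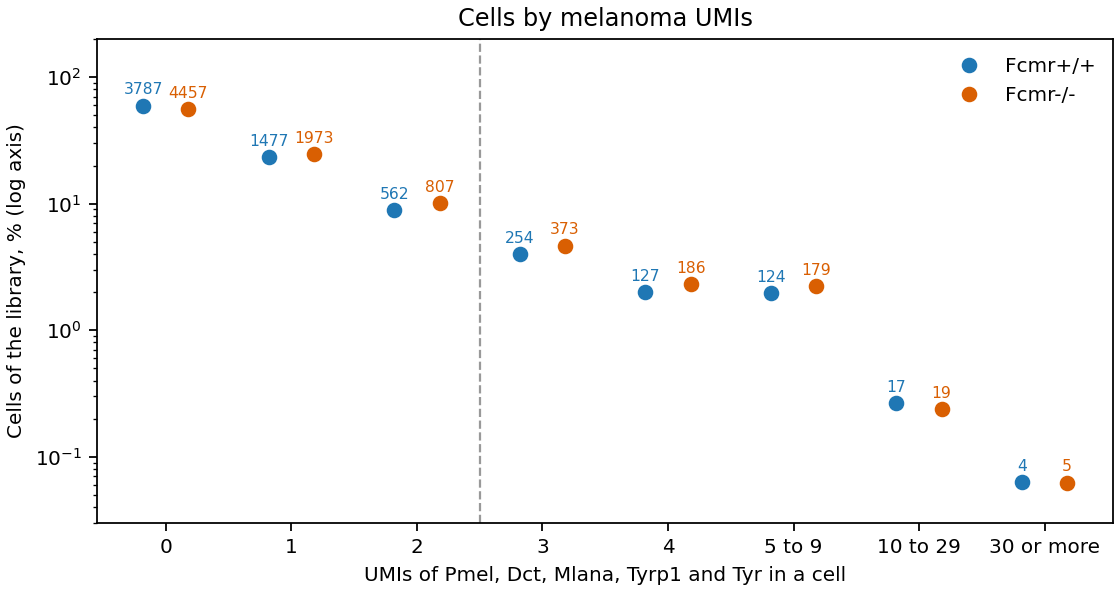
Cells by the number of melanoma UMIs, the summed UMIs of the 5 genes. The x axis gives the UMIs in a cell, the y axis the percent of the library's cells on a log scale, numbers are cells, and the dashed line marks the threshold of 3. The shares decline without a break from 0 UMIs (3787 Fcmr+/+ and 4457 Fcmr-/- cells) to 30 or more (4 and 5 cells).

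Pmel and Dct carried most of the signal. Pmel (ENSMUSG00000025359, chr10:128704195-128720238, plus strand, GRCm38) had 14.8 UMIs per 1000000 of the library (CPM, summed over cells) in Fcmr+/+ and 24.8 in Fcmr-/-, and 81.0% and 82.5% of members had a UMI of it. Dct (ENSMUSG00000022129, chr14:118012790-118052244, minus strand) had 14.4 and 22.6 CPM and was in 78.5% and 78.0% of members.

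Tyrp1 (ENSMUSG00000005994, chr4:80834123-80851719, plus strand) had 5.48 and 8.14 CPM and Mlana (ENSMUSG00000024806, chr19:29697824-29708634, plus strand) 4.72 and 6.67. Tyr (ENSMUSG00000004651, chr7:87424771-87493512, minus strand), the enzyme of the first step of melanin synthesis, was the scarcest of the 5, with 0.888 and 1.33 CPM and a UMI in 8.37% and 7.35% of members. A 3′ library counts molecules irrespective of transcript length, so these levels can be compared between genes as captured molecules, and capture can still differ between genes. Most members carried more than 1 of the genes: 482 of 526 (91.6%) and 686 of 762 (90.0%) had UMIs of at least 2. This is partly set by the rule, which needs 3 UMIs.

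Pmel and Dct were the largest components in cells with few and with several of these UMIs. In Fcmr+/+ cells Pmel made up 35.9% (33.4 to 38.4) of the UMIs in cells with 1 UMI, 38.6% (35.1 to 42.1) at 3 UMIs and 40.8% (37.2 to 44.4) at 5 to 9. In Fcmr-/- cells the shares were 41.0% (38.8 to 43.2), 40.4% (37.5 to 43.3) and 42.6% (39.7 to 45.7). All 3 intervals overlapped within Fcmr-/-, and in Fcmr+/+ the share was higher at 5 to 9 UMIs than at 1 with intervals that overlapped. Some other shares differed by more than their intervals in 1 library only. Mlana made up 13.9% (12.2 to 15.7) at 1 UMI and 9.28% (7.28 to 11.6) at 5 to 9 in Fcmr+/+, but 10.8% (9.51 to 12.3) and 9.90% (8.18 to 11.8), which overlapped, in Fcmr-/-. Dct made up 31.2% (29.1 to 33.3) at 1 UMI and 36.4% (33.5 to 39.3) at 3 in Fcmr-/-, but 34.2% (31.8 to 36.7) and 34.3% (30.9 to 37.7) in Fcmr+/+.

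At 10 or more UMIs the makeup was different. Dct was then the largest component, with 44.8% (40.7 to 49.1) in Fcmr+/+ and 48.6% (45.9 to 51.2) in Fcmr-/-, against 35.0% (33.0 to 37.2) and 34.3% (32.6 to 36.1) at 3 to 9 UMIs. Pmel had 30.2% (26.5 to 34.2) and 26.0% (23.7 to 28.4). These classes hold few cells, and the UMIs of 1 cell are not independent: 1 Fcmr-/- cell alone had 466 Dct and 210 Pmel UMIs.

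**Figure D2:**
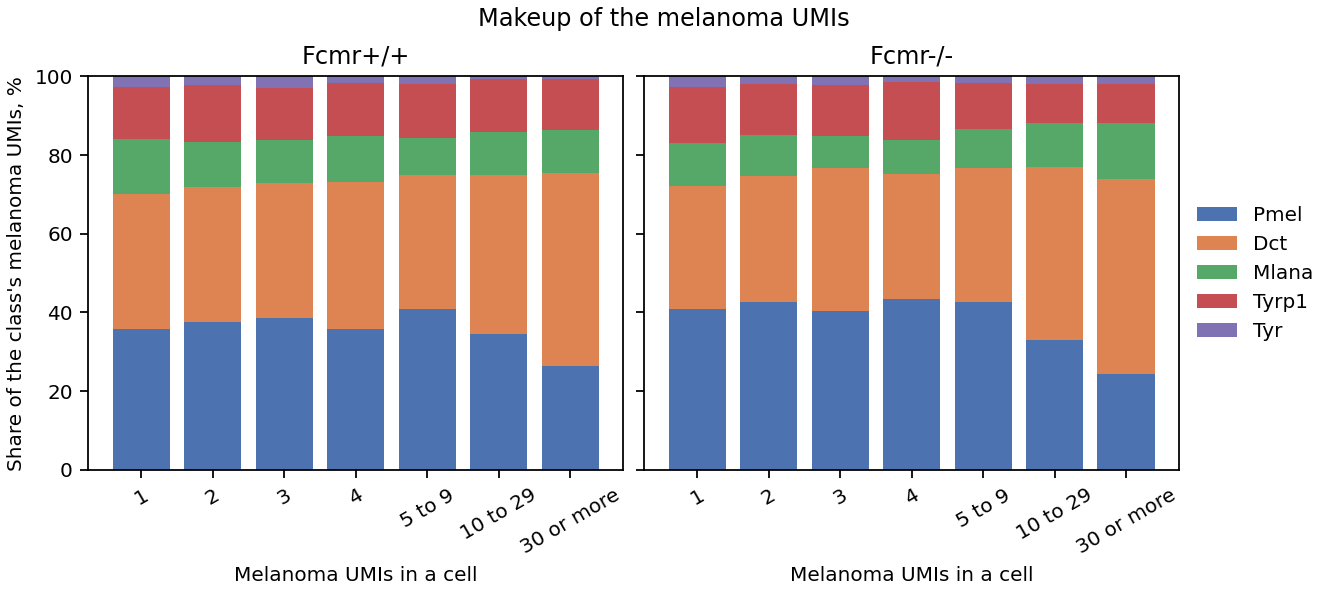
Makeup of the melanoma UMIs by class of cell. The x axis gives the melanoma UMIs in a cell, the y axis the percent of the class's melanoma UMIs that each gene holds, and each panel is 1 library. Pmel leads in cells with 1 UMI and Dct in cells with 30 or more (49.0% in Fcmr+/+ and 49.6% in Fcmr-/-).

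Members were among the more deeply sequenced cells of each library. Their median was 25886 UMIs in Fcmr+/+ and 20628 in Fcmr-/-, against 15629 and 11163 in cells with 0 melanoma UMIs. They also had more genes detected, 4538.5 against 3473 and 4095 against 2905. With the cells of each library split by total UMIs into 4 bins of equal size, 3.59% (Fcmr+/+) and 3.65% (Fcmr-/-) of the shallowest bin were members, and in the deepest bin 16.5% (14.7 to 18.4) and 20.3% (18.6 to 22.1).

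The share in thinned counts was not higher in deeper cells. Every cell was drawn down at random to 6000 UMIs, which left out 443 Fcmr-/- cells with fewer and 0 Fcmr+/+ cells, and cells with at least 1 remaining melanoma UMI were counted. From the shallowest to the deepest bin their share was 19.8%, 17.6%, 17.1% and 18.1% in Fcmr+/+, and 26.9%, 23.1%, 25.5% and 24.3% in Fcmr-/-. As deposited, the share of the same cells with at least 1 UMI was 25.5% in the shallowest and 58.5% in the deepest bin of Fcmr+/+, and 31.8% and 64.9% in Fcmr-/-. With 3 or more UMIs left after thinning it was 2.20% (1.54 to 3.05) and 0.567% (0.259 to 1.07), and 3.02% (2.29 to 3.89) and 1.48% (0.987 to 2.13). At either number of UMIs the thinned share in the deepest bin was thus below that in the shallowest.

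The order of the libraries was the same in the thinned counts. At least 1 UMI was left in 18.2% (17.2 to 19.1) of Fcmr+/+ and 25.0% (24.0 to 26.0) of Fcmr-/- cells, and 3 or more in 1.31% (1.04 to 1.62) and 1.92% (1.62 to 2.25). The summed level of the 5 genes was 40.2 CPM (39.1 to 41.3) in Fcmr+/+ and 63.6 (62.2 to 65.0) in Fcmr-/-, and 39.1 and 56.0 without the richest cell of each. The intervals did not overlap, though those of the thinned share with 3 or more UMIs nearly met. Whether this reflects the genotype or the library cannot be told apart.

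**Figure D3:**
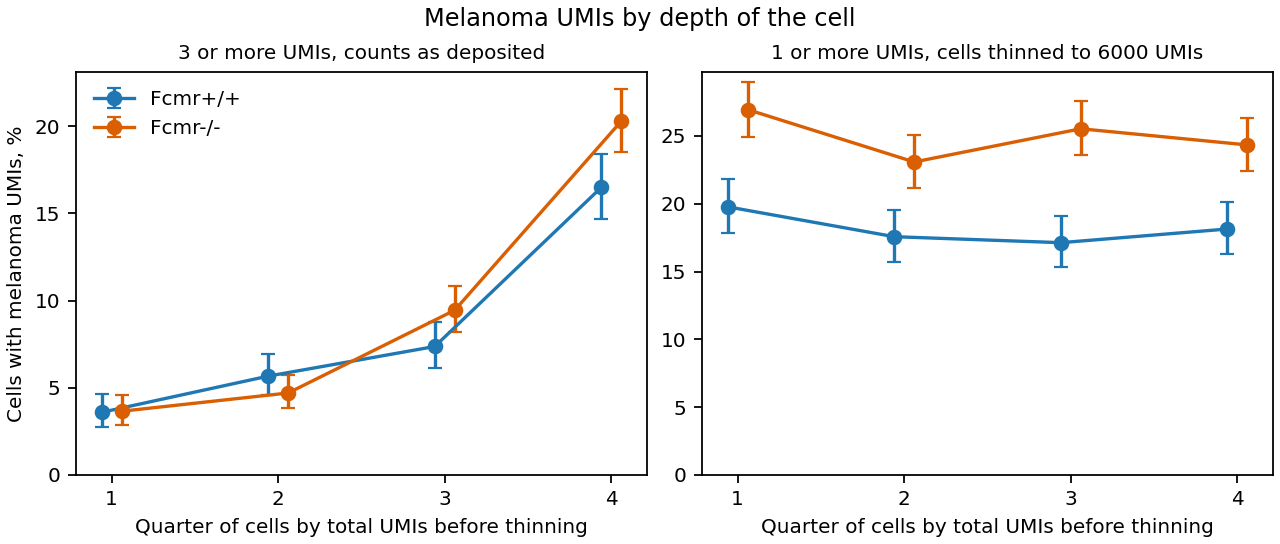
Share of cells with melanoma UMIs by depth. The x axis gives the 4 bins of cells by total UMIs before thinning, the y axis the percent of the bin's cells, and bars are 95% Clopper-Pearson intervals for counting error. As deposited (left) the share with 3 or more UMIs reaches 16.5% and 20.3% in the deepest bin, and at 6000 UMIs per cell (right) the share with 1 or more lies between 17.1% and 19.8% in Fcmr+/+ and between 23.1% and 26.9% in Fcmr-/-.

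Cells with T and NK cell markers, a type not known for making these genes, were set beside the rest. Cells with at least 5 UMIs of T and NK cell markers numbered 12 in Fcmr+/+ (median 21223 UMIs) and 32 in Fcmr-/- (median 18912.5 UMIs). In Fcmr-/-, 8 of the 32 (25.0%, 11.5 to 43.4) had at least 1 melanoma UMI and 1 (3.13%, 0.0791 to 16.2) had 3 or more, against 44.4% and 9.55% of the other cells at a lower median of 12901 UMIs. Thinned, 3 of 28 (10.7%, 2.27 to 28.2) kept a melanoma UMI, against 25.0% of the others.

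The Fcmr-/- share with 3 or more UMIs, and the thinned share, lay within the intervals of the T and NK marker cells, so at those cuts a difference was not detectable with so few cells. The share with at least 1 UMI lay above the interval. In Fcmr+/+, 4 of the 12 (33.3%, 9.92 to 65.1) had at least 1 melanoma UMI, against 40.4% of the other cells, and 1 (8.33%, 0.211 to 38.5) had 3 or more, against 8.28%. Thinned, 2 of the 12 (16.7%, 2.09 to 48.4) kept one, against 18.2%, so in Fcmr+/+ no difference from the other cells was detectable at any of these cuts. Summed levels were 17.4 CPM (8.70 to 31.2) against 63.8 in Fcmr-/-, and in Fcmr+/+ 30.3 (13.8 to 57.5, from 9 UMIs) against 40.3, within the interval. These cells also held macrophage transcripts, at 17624 CPM of the macrophage markers in Fcmr-/- and 26095 in Fcmr+/+, so they are not a pure reference, and whether their melanoma UMIs were free RNA, a second cell or engulfed material was not tested.

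By their markers the members were macrophages. Summed over 15 macrophage markers, among them the receptor of the growth factor CSF1 (Csf1r), F4/80 (Adgre1), both genes of the sort (Mertk and Fcgr1), lysozyme (Lyz2) and complement C1q, the median member had 670 UMIs in Fcmr+/+ and 597 in Fcmr-/-. No member lacked them, the lowest counts being 46 and 24. In the classes of 3 to 9 melanoma UMIs the markers stood at 26989 and 28911 CPM, against 27343 and 28028 in cells with 0. At 30 or more they stood at 15435 and 11305 CPM, and at 17246 in Fcmr-/- without the 1 cell richest in melanoma UMIs.

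The richest cell of each library was low in macrophage transcripts. The next ones in order varied, at 21447 and 10459 CPM of these markers in Fcmr+/+ and at 9770 and 21900 CPM in Fcmr-/-. In Fcmr+/+ the cell with the most had 146 melanoma UMIs among 29508, with 301 macrophage UMIs (10201 CPM), and the next had 65 and 48. In Fcmr-/- 1 cell had 945 melanoma UMIs among 41731 (2.26%), made up of 210 Pmel, 466 Dct, 151 Mlana, 98 Tyrp1 and 20 Tyr, with 35 macrophage UMIs (839 CPM), and the next had 66 and 65. The label of a phagocyte is thus weak for that 1 cell by its own transcripts, and it found no match in depth and took no part in the comparisons with matched cells.

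To describe the members at equal depth, each was paired with the cell of its own library nearest in total UMIs among those with 0 melanoma UMIs, within 10%. Pairs were found for 523 of 526 Fcmr+/+ and 728 of 762 Fcmr-/- members. The 3 and 34 left without a match were among the deepest cells, with medians of 61812 and 50648.5 UMIs. Medians of the pairs were 25712 and 25715 UMIs in Fcmr+/+ and 20103.5 and 20099 in Fcmr-/- (members first).

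Genes detected were then alike, 4525 and 4564 in Fcmr+/+ and 4042.5 and 4001 in Fcmr-/-. The mitochondrial share remained higher in members, with medians of 5.20% against 4.64% and 4.80% against 4.16%. Its part in the differences between members and matched cells was not tested. The macrophage markers stood at 26876 CPM in members and 27549 in matched cells of Fcmr+/+, and at 29046 and 28674 in Fcmr-/-. The sum was thus slightly lower in Fcmr+/+ members and slightly higher in Fcmr-/- members, while the median over the 15 genes was above 0 in both (log2 0.03 and 0.09). The sum is dominated by Lyz2, lower in both (8614 against 9355 and 8946 against 9438 CPM).

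Other genes of the melanocyte lineage, which the rule did not use, were mostly higher in members. Of 24 such genes, 23 had a UMI in each library. In Fcmr+/+ 19 were higher in members and 4 lower (Mcoln3, Syngr1, Kit and Gmpr), and in Fcmr-/- 18 were higher and 5 lower (Gpr143, Erbb3, Mcoln3, Syngr1 and Mia). Over all genes with 5 CPM in members or matched cells, 43.7% and 45.8% were higher in members. Of the melanocyte genes at that level 3 of 5 in Fcmr+/+ and 4 of 5 in Fcmr-/- were. The counts over 23 genes have no such filter, so they are not directly comparable with these shares. Only 5 of the 24 reached 5 CPM in either group of a library. Genes under that level were left out of the counts of 2-fold differences and of the list medians.

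Ptgds, prostaglandin D2 synthase, which melanocytes and melanoma cells make, differed most among the melanocyte genes with 5 CPM in members or matched cells. It had 24.1 CPM in Fcmr+/+ members against 3.59 in matched cells, with a UMI in 167 against 45 cells. In Fcmr-/- it had 25.7 against 5.29 CPM, in 225 against 77 cells. The log2 ratios, after 1 CPM was added to each level as in all ratios here, were 2.45 and 2.09, and the intervals of the plain ratios were 2.32 to 3.20 and 1.94 to 2.64 on the log2 scale.

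Ptgds followed the melanoma UMIs by class. In Fcmr+/+ cells it stood at 3.73 CPM with 0 melanoma UMIs, 6.47 with 1 or 2, 18.8 with 3 to 9 and 206 with 10 or more. In Fcmr-/- cells it stood at 5.84, 8.94, 18.8 and 412 CPM, but 171 of the 275 UMIs behind the last value were in the 1 cell with 945 melanoma UMIs, and the other 23 cells gave 166 CPM (136 to 201). Per 100 melanoma UMIs there were between 10.3 and 19.7 Ptgds UMIs in the 7 classes from 1 to 30 or more in Fcmr+/+, and between 9.14 and 21.8 in Fcmr-/-. The 21.8 belonged to the class of 30 or more, which stood at 40.3 without that 1 cell. The level of Ptgds in cells with 0 melanoma UMIs was not 0, so some was captured where no UMI of the 5 genes was. Such cells can still hold transcripts of the 5 genes that were not captured.

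Trpm1, a cation channel of melanocytes, had 7.62 CPM in members against 2.96 in matched cells of Fcmr+/+, and 6.48 against 2.77 in Fcmr-/-. Slc24a5, an ion exchanger of the melanosome, had 6.65 against 3.38 and 5.53 against 2.84. S100b, a calcium-binding protein of the neural crest lineages, had 4.02 against 2.11 and 4.97 against 1.74. All intervals of these ratios lay above 0 in both libraries.

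Less abundant members of the list went in both directions. Those lower in members were Mcoln3 in both libraries, Kit in Fcmr+/+, and Gpr143, Erbb3 and Mia in Fcmr-/-. Of those higher in both, Rab38, which sorts cargo to melanosomes, had 3.47 against 1.97 CPM in Fcmr+/+ and 4.34 against 2.06 in Fcmr-/-. Cited1, a transcriptional co-activator, had 3.53 against 0.774 and 1.51 against 0.516, with 27 of its 51 UMIs in Fcmr+/+ members in 1 cell, and Slc45a2, a transporter of the melanosome, had 2.63 against 0.774 and 1.95 against 0.774. Mlph, which links melanosomes to the cytoskeleton, had 2.56 against 1.20 and 2.26 against 1.03, and Mc1r, the melanocortin receptor, had 1.73 against 0.633 and 1.57 against 0.581. Each rests on few UMIs, and Sox10, a transcription factor of the lineage, was in 11 against 2 cells in Fcmr+/+ and in 10 against 8 in Fcmr-/-.

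Of the 5 melanocyte genes with 5 CPM, Syngr1, a vesicle protein, and Gmpr, an enzyme of purine metabolism, were not higher in members of both libraries. Syngr1 had 201 against 204 CPM in Fcmr+/+ and 137 against 138 in Fcmr-/-, in most cells of either kind. Gmpr had 8.66 against 11.5 and 7.80 against 6.90. Because Syngr1 dominates the sum, the summed list was only slightly higher, at 275 against 238 CPM in Fcmr+/+ (log2 0.21, 0.14 to 0.28) and 207 against 169 in Fcmr-/- (log2 0.29, 0.22 to 0.36). Without Syngr1 and Gmpr, left out after their values were seen, the sums were 65.2 against 21.7 and 62.3 against 23.7 CPM.

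Melanosome genes that macrophages make themselves differed less between members and matched cells. Of 12 such genes 8 were higher in Fcmr+/+ members and 6 in Fcmr-/- members. Of the 11 with 5 CPM, 7 and 6 were higher, against 43.7% and 45.8% of all genes tested. Ednrb, the endothelin receptor B, was higher in both, with 122 against 110 CPM in Fcmr+/+ and 56.4 against 42.3 in Fcmr-/-. Gpnmb, a glycoprotein of lysosomes and melanosomes, had 1042 against 957.5 CPM in Fcmr+/+ and 878 against 898 in Fcmr-/-. Mitf had 39.9 against 36.0 and 41.9 against 43.0 CPM. Over 11 of 12 such genes with 5 CPM the median log2 ratios were 0.02 and 0.06, against -0.02 and -0.01 over all genes tested. In Fcmr-/- their sum was lower in members, at 2358 against 2435 CPM, although the median was above 0.

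The number of genes that separated members from matched cells depended on the cells taken. Among 8719 genes tested in Fcmr+/+, 10 were at least 2-fold higher in members (0.115%) and 2 at least 2-fold lower (0.0229%). Among 8711 in Fcmr-/-, 11 were at least 2-fold higher (0.126%) and 8 lower (0.0918%). Other choices gave more, with lower genes the more numerous at 5 or more melanoma UMIs (73 higher and 105 lower) and in thinned counts (323 and 623) of Fcmr+/+, where members were fewer. With at most 5000 genes per cell they were 36 and 33. In Fcmr-/- the numbers were 43 and 29, 137 and 213, and 18 and 14. Of the other melanocyte genes, Ptgds and Trpm1 were among the 10, and Ptgds was among the 11. The higher genes had 3 in common (Ptgds, Sparc and Saa3), which is 3 of 10 and 3 of 11, and the lower genes had 1 in common (Ifitm1), 1 of 2 and 1 of 8. Several genes entered these counts through the group in which they were high. Sparc reached 5 CPM only in members in both libraries. So did Ptgds, Trpm1, F3, Syt4, Nedd4, Mt3 and Saa3 in Fcmr+/+, and Cd209f and Apold1 in Fcmr-/-. Among the lower genes, Ccl17, Cd209a and Serpinb2 in Fcmr-/- and S100a9 in Fcmr+/+ reached it only in matched cells.

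Sparc, a secreted matrix protein made by fibroblasts and by melanoma cells, had 5.27 against 1.20 CPM in Fcmr+/+ and 5.03 against 1.55 in Fcmr-/-. By class it stood at 1.21, 2.06, 3.94 and 52.7 CPM with 0, 1 or 2, 3 to 9 and 10 or more melanoma UMIs in Fcmr+/+, and at 1.44, 2.07, 4.05 and 28.5 in Fcmr-/-. Syt4, a synaptotagmin of vesicles, and Nedd4, a ubiquitin ligase, were also higher in each class than in the one before. Both were at least 2-fold higher in Fcmr-/- members too, at levels under 5 CPM. Syt4 stood at 1.49, 2.40, 3.72 and 82.8 CPM in Fcmr+/+ and 1.83, 2.42, 3.41 and 61.4 in Fcmr-/-. Nedd4 stood at 1.40, 2.44, 4.22 and 55.2 and at 1.90, 2.70, 3.94 and 42.0. The last value rests on 28 UMIs in 3 of the 24 Fcmr-/- cells, and those of Syt4 on 9 cells in each library. Sparc, Syt4 and Nedd4 were named because they were at least 2-fold higher in Fcmr+/+ members. The classes from 3 UMIs up are those members, so higher levels there than at 0 were partly set by this choice.

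Saa3, an acute-phase protein, rested on few cells. It was in 23 members and 11 matched cells in Fcmr+/+, and in Fcmr-/- 174 of its 382 UMIs in members were in 1 cell. Against all Fcmr+/+ cells with 0 melanoma UMIs its log2 ratio was -0.23, so its direction depended on the cells compared. Mt3, a metallothionein, had 46 of 77 UMIs in 1 member, and S100a9, of neutrophils, had 90 of 93 UMIs in 1 matched cell, both in Fcmr+/+. Ccl17, a chemokine, had 172 of 371 UMIs in 1 matched Fcmr-/- cell.

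In Fcmr+/+, Tnfrsf9 (the receptor 4-1BB), Inhba (a subunit of activin) and F3 (tissue factor) were the other 3 genes at least 2-fold higher. Inhba had 30.5 against 12.8 CPM there and 55.1 against 55.4 in Fcmr-/-, and F3 had 7.55 against 3.24 and 4.90 against 6.19, so neither was higher in Fcmr-/- members. Against all Fcmr+/+ cells with 0 melanoma UMIs none of the 3 was 2-fold higher, the log2 ratios being 0.25 for Tnfrsf9, 0.073 for Inhba and 0.52 for F3. In Fcmr-/- the other genes were Lyve1, Cd209f and Cd163 (receptors of resident macrophages), Nos2 (inducible nitric oxide synthase), C4b (complement C4), Fxyd2, Rcn3 and Apold1. Lower in Fcmr-/- members, beside Ccl17 and Ifitm1, were Retnla, Mgl2, Ear2, Serpinb2, Areg and Cd209a. Retnla, Mgl2 and Ear2 are genes of alternatively activated macrophages, Ifitm1 is an interferon-induced membrane protein and Areg encodes the growth factor amphiregulin. Ifitm1 had 6.86 against 16.8 CPM in Fcmr+/+ and 14.96 against 32.1 in Fcmr-/-. Retnla had 52.7 against 81.8 CPM in Fcmr+/+ and 33.5 against 87.1 in Fcmr-/-, but 541 of 1163 and 387 of 1350 UMIs of the matched cells were in 1 cell of each library. Against all Fcmr-/- cells with 0 melanoma UMIs its log2 ratio was 0.27, and among Fcmr+/+ members with 5 or more melanoma UMIs it was 1.56. Mgl2 had 45.7 against 47.1 CPM in Fcmr+/+ and 26.2 against 60.1 in Fcmr-/-.

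Ranked by the smaller of the ratios in the libraries, and keeping genes that reached 20 CPM in each, the 15 highest in members were led by Ptgds, followed by Hspa1b, Lyve1, Hspa1a and Rsad2. Ptgds and Chchd10 reached 20 CPM only in members in both libraries, and Lyve1 only in members in Fcmr-/-. There they entered the ranking through the group in which they were high. Among the lowest, Ear2 and Areg in Fcmr-/- reached it only in matched cells, the group in which they were high. Hspa1b and Hspa1a, inducible heat shock proteins, had 148 against 82.5 and 278 against 173 CPM in Fcmr+/+, and 165 against 94.1 and 301 against 201 in Fcmr-/-. The size of these differences depended on the matching: against all cells with 0 melanoma UMIs the log2 ratios were 0.49 and 0.19 for Hspa1b and 0.060 and 0.050 for Hspa1a. Lyve1, a hyaluronan receptor of resident tissue macrophages, had 49.6 against 29.8 CPM in Fcmr+/+ in 85 and 71 cells, and 47.5 against 8.45 in Fcmr-/- in 81 and 33 cells. Most members of either library had no UMI of it, and among thinned Fcmr+/+ cells its log2 ratio was -2.73.

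The rest of the 15 held genes of the interferon response and of glucose metabolism. Rsad2, an antiviral enzyme, had 198 against 139 CPM in Fcmr+/+ and 248 against 169 in Fcmr-/-, and Irf7, an interferon regulatory factor, had 74.0 against 51.7 and 150.0 against 114. Ccl8, a chemokine, was abundant, with 827 against 604 and 2016 against 1388 CPM. In thinned Fcmr+/+ counts its log2 ratio was -0.54, and Fcmr+/+ cells with 10 or more melanoma UMIs had 261 CPM against 527 in cells with 0. Slc2a1, the glucose transporter GLUT1, had 166 against 113 and 164 against 129 CPM. Ly6a, Gadd45g, Fam46c, Cd72, Chchd10, Ifit1 and Pfkfb3 completed the set, of which Ly6a was at -0.59 in thinned Fcmr+/+ counts. In Fcmr-/-, against all cells with 0 melanoma UMIs, the log2 ratio was -0.11 for Rsad2, -0.16 for Slc2a1 and -0.19 for Ifit1, so their direction depended on the matching, and Irf7 was at 0.0063 in Fcmr+/+ and 0.038 in Fcmr-/-. Among Fcmr+/+ members with 5 or more melanoma UMIs that of Rsad2 was -0.20.

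The 15 lowest held Ccnb1, Plk1, Cenpf, Ccna2, Mki67 and Cenpe of the list of G2 and mitosis, and Tyms and Rrm2 of that of S phase. These lists had 24 and 22 of the 8719 genes tested in Fcmr+/+ and of the 8711 in Fcmr-/-. Racgap1, Prc1, Mad2l1 and 2810417H13Rik were among the 15 but in neither list. Ccnb1, cyclin B1, had 26.6 against 46.8 CPM in Fcmr+/+ and 26.2 against 39.0 in Fcmr-/-. Mki67, which encodes the antigen Ki-67, had 91.1 against 124 and 73.7 against 99.2 CPM. The other 3 were Retnla, Ear2 and Areg. The 12 genes other than these 3 were all higher in members of both libraries when set against all cells with 0 melanoma UMIs. Among them, Ccnb1 had log2 ratios of 0.052 and 0.41 and Mki67 0.27 and 0.42.

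**Figure D4:**
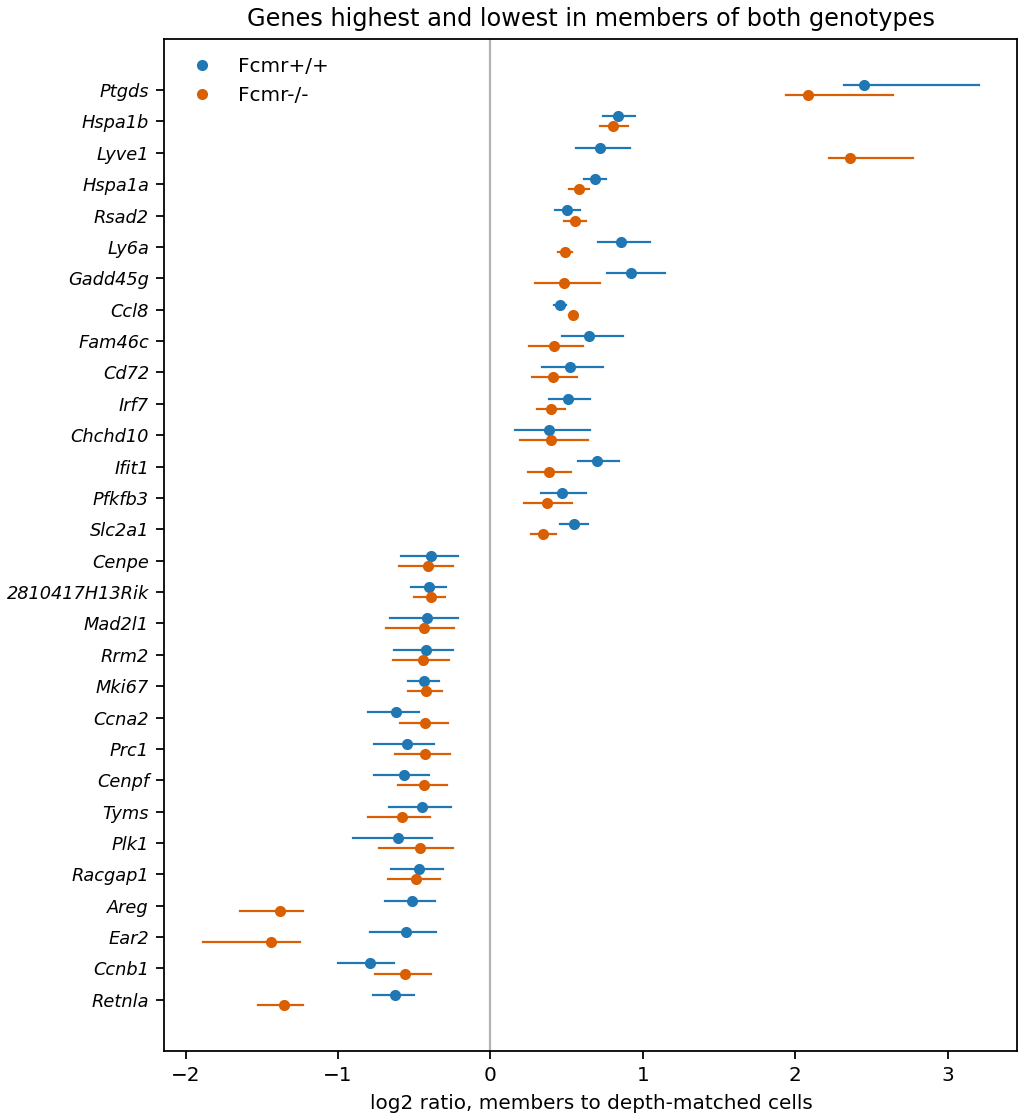
The 15 genes highest and the 15 lowest in members of both libraries, ranked by the smaller ratio among genes reaching 20 CPM in each. The x axis is the log2 ratio of members to depth-matched cells with 1 CPM added (points), and bars are 95% intervals of the plain ratio of summed UMIs for counting error only. Ptgds lies furthest to the right in Fcmr+/+ at 2.45 and Lyve1 in Fcmr-/- at 2.36, each where only members reached 20 CPM. The genes on the left include Ccnb1 and other genes of the list of G2 and mitosis.

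The proliferation lists were lower as a whole in members than in matched cells. For these and the lists below, 43.7% of all genes tested in Fcmr+/+ and 45.8% in Fcmr-/- were higher in members. Counts that include genes under 5 CPM are not directly comparable with those shares. Of 24 genes of G2 and mitosis, 0 were higher in members of either library, with median log2 ratios of -0.56 in Fcmr+/+ and -0.35 in Fcmr-/-. Of 22 genes of S phase, 0 and 4 were higher, with medians of -0.22 and -0.15. This direction depended on the matching: against all cells with 0 melanoma UMIs, which were shallower, the medians were 0.17 and 0.54 for G2 and mitosis and 0.23 and 0.39 for S phase. The members thus had more of these transcripts than the average cell without melanoma UMIs and fewer than cells of their own depth.

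Genes of the type I interferon response were slightly higher in members. Of 37 genes, 35 were higher in each library, with medians over those with 5 CPM of 0.19 (36 genes) and 0.27 (37 genes). Isg15, a ubiquitin-like protein, had 168 against 113 CPM in Fcmr+/+ and 266 against 218 in Fcmr-/-, and Oas3, which senses double-stranded RNA, had 18.9 against 11.4 and 39.0 against 30.3. Not one of the list was 2-fold higher. In Fcmr+/+ the median was -0.12 among members with 5 or more melanoma UMIs, and against unmatched cells it was 0.028 in Fcmr+/+ and 0.040 in Fcmr-/-.

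Genes of the type II response were higher chiefly in Fcmr-/-. There 24 of 26 genes were higher in members, with a median of 0.33 over 22 genes, and in Fcmr+/+ 16 of 24 with a UMI were, with a median of 0.08 over 15, which was -0.59 in thinned counts. Cxcl9, a chemokine for T cells, had 215 against 155 CPM in Fcmr-/- and 15.2 against 14.7 in Fcmr+/+. Gbp2, a guanylate-binding protein, had 188 against 136 and 22.4 against 24.1 CPM. Nos2 had 49.2 against 22.4 CPM in Fcmr-/- and 9.43 against 4.43 in Fcmr+/+, but this rested on the matching: against all cells with 0 melanoma UMIs its log2 ratios were 0.14 and 0.014. The difference between the libraries was not tested, and many of these genes were at low levels in Fcmr+/+ cells of either kind.

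Presentation by MHC class II went the other way. In Fcmr+/+ 9 of 11 genes and in Fcmr-/- 10 of 11 were lower in members, with medians of -0.08 and -0.15, and of -1.79 and -0.39 in thinned counts with their fewer members. H2-Ab1, a chain of the class II molecule, had 590 against 626 CPM in Fcmr+/+ and 935 against 1156 in Fcmr-/-. Cd74, the invariant chain, had 1804 against 1906 and 3020 against 3314. Genes of class I presentation had medians of 0.07 and 0.12, with 14 and 20 of 21 higher, against 43.7% and 45.8% of all genes tested. In Fcmr+/+ the class I median was -0.11 among members with 5 or more melanoma UMIs.

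Immediate-early and heat shock genes were higher for 20 of 21 in Fcmr+/+ and 18 of 21 in Fcmr-/-, with medians of 0.15 and 0.16. Fos had 1271 against 1070 and 1311 against 1136 CPM. These genes also respond to tissue dissociation, and whether this had a part was not tested. In the list of hypoxia and glycolysis 18 and 21 of 24 were higher, with medians of 0.09 in both. Ndrg1, a hypoxia-induced gene, had 247 against 183 and 180 against 156 CPM. Without matching the medians were 0.0013 and 0.023 for the immediate-early and heat shock list and -0.0012 and -0.096 for hypoxia and glycolysis.

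Genes of resident-like and scavenging macrophages were higher in Fcmr-/- members, all 12 listed, with a median of 0.27 over 11. Folr2, a folate receptor, had 202 against 157 CPM there and 272 against 254 in Fcmr+/+, and Cbr2, a carbonyl reductase, had 172 against 117 and 241 against 212. Cd163, the haptoglobin scavenger receptor, had 15.9 against 7.10 CPM in Fcmr-/- and 25.2 against 28.7 in Fcmr+/+. Cells with a UMI of Cd163 differed less in Fcmr-/-, with 64 members and 54 matched cells, and were 133 and 148 in Fcmr+/+. The direction in Fcmr+/+ was not firm, since its log2 interval of -0.394 to 0.0208 included 0 and its thinned log2 ratio was 0.52. Cd209f was in 12 members and 4 matched cells of Fcmr-/-, but in 2 members and 15 matched cells of Fcmr+/+, at 0.762 against 1.97 CPM. In Fcmr+/+ 8 of 12 of the list were higher, with a median of 0.05, which was -0.38 in thinned counts. Of those with 5 CPM, 8 of 10 in Fcmr+/+ and 11 of 11 in Fcmr-/- were higher, against 43.7% and 45.8% of all genes tested.

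Genes of recently recruited monocytes were lower, 10 of 12 in Fcmr+/+ and 8 of 12 in Fcmr-/-, with medians of -0.23 and -0.21. Of the 10 with 5 CPM, 2 and 3 were higher in members, against 43.7% and 45.8% of all genes tested. Fn1, fibronectin, had 424 against 541 and 352 against 517 CPM. Ccr2, the receptor for monocyte recruitment, had 96.4 against 113 and 93.2 against 131. Ly6c2, the monocyte surface marker, did not follow, with 24.8 against 21.5 and 81.8 against 69.4 CPM.

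The machinery of engulfment and digestion was close to that of matched cells. Over 23 scavenger and efferocytosis receptors with 5 CPM the medians were 0.05 and 0.07. Over 28 lysosomal genes they were 0.05 and 0.02, over 16 lipid-associated genes 0.06 and -0.03, and over the complement genes 0.03 and 0.10. Thinned, the receptors had -0.16 and -0.12, and in Fcmr+/+ the lysosomal genes -0.083 and the complement genes -0.35. Mertk, a receptor for dying cells, had 61.1 against 57.1 CPM in Fcmr+/+ and 52.7 against 49.9 in Fcmr-/-. Ctsb, cathepsin B, had 7252 against 6964 and 6645 against 6228 CPM.

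The remaining macrophage lists had medians between -0.10 and 0.14. Oxidative phosphorylation had -0.10 and -0.05, with 1 and 3 of 23 genes higher. Immunosuppressive effectors had 0.14 and 0.02, inflammatory cytokines and chemokines 0.07 and -0.03, DNA and RNA sensing 0.06 and 0.01, and co-stimulation and checkpoint ligands 0.03 and 0.07. Medians and sums differed in sign for immunosuppressive effectors, lipid-associated genes and inflammatory cytokines in Fcmr-/- and for co-stimulation in Fcmr+/+.

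**Figure D5:**
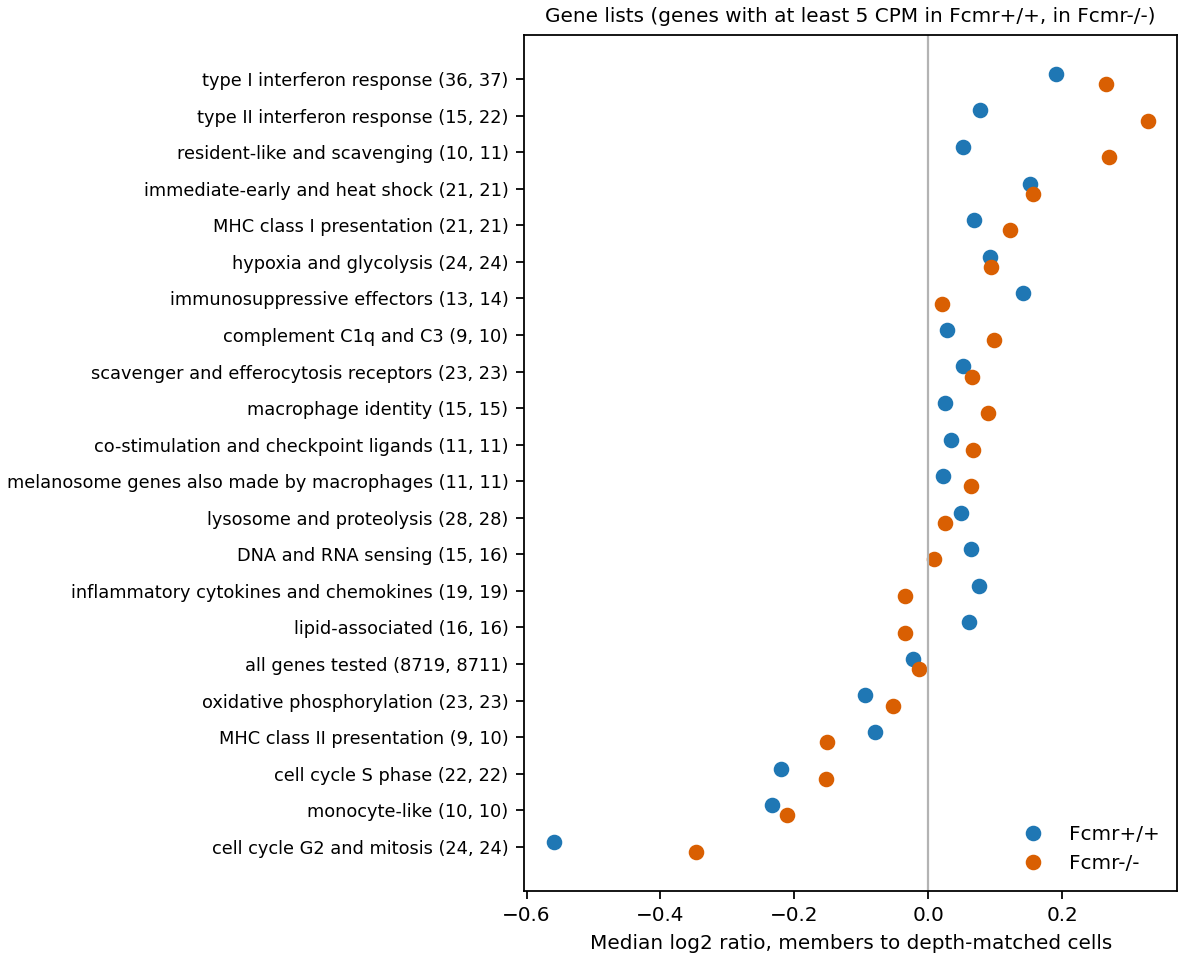
Median log2 ratio of members to depth-matched cells for gene lists with 5 or more genes tested, with 1 CPM added. The x axis is the median over genes with at least 5 CPM (their numbers in Fcmr+/+ and Fcmr-/- in parentheses) and points are libraries. The genes of G2 and mitosis have medians of -0.56 and -0.35, and all genes tested -0.02 and -0.01. The other melanocyte genes are not drawn, since among the 5 with 5 CPM, Trpm1 and Slc24a5, and in Fcmr+/+ Ptgds, reached that level only in members.

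The share of cells with melanoma transcripts also varied with the level of some macrophage programs over all cells. Cells thinned to 6000 UMIs were ranked by the UMIs of a list and split into 4 bins, and the lowest and highest bins were set side by side for the share with at least 1 melanoma UMI. For lysosomal genes the share was 14.5% (12.8 to 16.3) in the lowest and 19.5% (17.5 to 21.5) in the highest bin of Fcmr+/+, and 19.4% (17.7 to 21.3) and 29.3% (27.3 to 31.4) in Fcmr-/-. For lipid-associated genes it was 14.4% and 19.8%, and 22.02% and 27.8%. For the melanosome genes that macrophages also make it was 13.9% (12.2 to 15.7) and 20.1% (18.1 to 22.1) in Fcmr+/+, and 21.3% (19.5 to 23.3) and 25.5% (23.6 to 27.5) in Fcmr-/-.

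Several lists gave the opposite order, among them MHC class II and the monocyte-like genes. For MHC class II the share was 20.8% (18.8 to 22.9) in the lowest and 14.1% (12.4 to 15.9) in the highest bin of Fcmr+/+, and 25.6% (23.7 to 27.7) and 22.2% (20.3 to 24.1) in Fcmr-/-. For monocyte-like genes it was 21.1% and 13.9%, and 24.4% and 20.8%. For macrophage identity genes it was 20.5% (18.5 to 22.5) in the lowest and 16.3% (14.5 to 18.2) in the highest bin of Fcmr+/+, and 26.2% (24.2 to 28.2) and 24.8% (22.8 to 26.8) in Fcmr-/-. For oxidative phosphorylation it was 20.3% and 15.7%, and 27.7% and 23.2%, and for inflammatory genes 20.03% and 16.6%, and 26.9% and 22.9%. For the type II interferon response it was 18.0% and 19.0% in Fcmr+/+ and 22.2% and 28.9% in Fcmr-/-. The genes of G2 and mitosis, lower in members than in matched cells, gave 17.6% and 18.01% in Fcmr+/+ and 24.4% and 24.5% in Fcmr-/-, with intervals that overlapped. Total UMIs before thinning also differed between some of these bins. For MHC class II the medians were 20571.5 and 14995.5 in Fcmr+/+ but 13034 and 13030 in Fcmr-/-. For lysosomal genes they were 12806.5 and 18399.5 in Fcmr+/+ but 12414 and 12469 in Fcmr-/-. The part of total UMIs in these shares was not tested.

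Markers of other cell types were sparse in members. Of 10 fibroblast markers 9 had a UMI in each library, and their sum was 6.86 CPM in members against 1.97 in matched cells of Fcmr+/+, and 6.85 against 2.52 in Fcmr-/-. Sparc made up most of it, so this sum moved with the melanoma UMIs as Sparc did. T and NK cell markers summed to 3.12 against 3.17 CPM in Fcmr+/+ and 2.70 against 19.2 in Fcmr-/-, where all 10 with a UMI were lower in members. Leaving out cells with 5 or more of these UMIs left the Fcmr-/- medians at 0.27 for the type I and 0.34 for the type II response.

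Neutrophil markers summed to 50.7 against 65.8 CPM in Fcmr+/+ and 93.4 against 86.5 in Fcmr-/-, with Mmp8 the most abundant. Dendritic cell markers summed to 18.6 against 22.4 and 31.9 against 41.9 CPM, with Batf3 the most abundant, and B cell markers to 11.8 against 12.2 and 10.6 against 11.0. Endothelial markers summed to 7.83 against 7.95 and 24.4 against 18.8 CPM, keratinocyte markers to 3.60 against 4.79 and 3.46 against 3.61, erythroid markers to 1.73 against 0.985 and 0.880 against 0.839, and mast cell markers to 0.0693 against 0 and 0 against 0.129. No doublet caller was run, and the part that 2 cells in a droplet, free RNA or engulfed material had in any of these values was not tested.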

How the data were processed

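The 2 deposited matrices hold counts of UMIs for 14409 cells, not normalized, which the authors made with Cell Ranger on GRCm38. The study's limits on genes and mitochondrial UMIs (13 genes starting mt-) were applied. Python 3.11.15, numpy 2.4.6, scipy 1.17.1 and matplotlib 3.10.9 were used. Of symbols shared by several identifiers the one with the most UMIs was used. Levels are summed UMIs per 1000000 (CPM), ratios were taken after adding 1 CPM, and genes under 5 CPM in members and matched cells alike were not tested. Matching was 1 to 1 without replacement, deepest member first. Intervals are exact (Clopper-Pearson for shares, Poisson for levels and their ratios) at 95%. With 1 library per genotype no test was run. Scripts were tested on simulated data.

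The members and the 32 gene lists were chosen with earlier results of these data known, and 6 listed symbols are not among the 27998 genes. Named are the 5 rule genes, Fcmr, other melanocyte genes with 5 CPM, the 15 highest and lowest genes and members of the lists. Genes outside these were named after their values were seen: those past 2-fold and less abundant melanocyte genes. Alternatives covered thresholds, thinning, matching, scaling, filters and limits on cells.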

Additional observations from a re-analysis of the deposited data

Results flagged for a closer look

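Tnfrsf9, which encodes the receptor 4-1BB, had opposite directions in the libraries: its log2 ratio of members to matched cells was 1.39 in Fcmr+/+ and -0.28 in Fcmr-/-. It had a UMI in 39 members and 26 matched cells of Fcmr+/+, and in 41 and 66 of Fcmr-/-. The difference was not tested.

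Cells above the limit of 7000 genes were outside the comparisons and also carried the transcripts. Of 33 such Fcmr+/+ cells, 14 (42.4%, 25.5 to 60.8) had 3 or more melanoma UMIs, and of 15 such Fcmr-/- cells, 10 (66.7%, 38.4 to 88.2) did. Their median depths were 77064 and 74064 UMIs, and the most melanoma UMIs in 1 of them were 6 in Fcmr+/+ and 1132 in Fcmr-/-, the latter in a cell of 74437 UMIs with 542 macrophage UMIs.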

How the results depend on the processing

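No paired analysis was possible because each genotype has 1 library. The share of members in Fcmr+/+ and Fcmr-/- was 40.4% and 44.3% at 1 UMI, 17.1% and 19.6% at 2, 2.28% and 2.54% at 5, and 0.331% and 0.300% at 10. Thinned, it was 1.31% and 1.92% at 3 UMIs and 18.2% and 25.0% at 1. It was 6.16% and 7.82% with at most 5000 genes, 4.11% and 4.13% without Pmel, 4.23% and 5.01% without Dct, 6.88% and 8.40% without Mlana, and 6.66% and 7.59% without Tyrp1.

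The log2 ratio of the summed other melanocyte genes was above 0 under all alternatives. In Fcmr+/+ it was 0.30 without matching, 0.29 with 3 matched cells, 0.29 with matching on UMIs outside the 5 and mitochondrial genes, 0.41 at 5 UMIs, 0.12 at 3 to 9, 1.23 thinned, 0.37 as a mean over cells, 0.36 with at most 5000 genes and 1.59 without Syngr1 and Gmpr. In Fcmr-/- it was 0.40 without matching, 0.47 with the other matching, 0.45 against cells with 0 or 1 UMI, 1.08 at 5 UMIs, 0.21 at 3 to 9, 1.11 thinned and 1.39 without Syngr1 and Gmpr.

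Genes 2-fold higher and lower in Fcmr+/+ members numbered 73 and 105 at 5 UMIs, 323 and 623 thinned, 36 and 33 with at most 5000 genes, 33 and 5 without a filter, 2 and 0 at 20 CPM, and 1 and 1 with 5 CPM added. In Fcmr-/- they numbered 43 and 29, 137 and 213, 18 and 14, and 26 and 22 under the first 4 of these. The higher genes were 5 at 20 CPM and 3 with 5 CPM added in Fcmr-/-, 17 there as a mean over cells, and 5 with 3 matched cells and 6 at 3 to 9 UMIs in Fcmr+/+. The lower genes were 6 and 16 without matching in Fcmr+/+ and Fcmr-/-, and in Fcmr+/+ 4 with the other matching, 4 as a mean over cells and 5 with 0.1 CPM added. Thinned groups and those at 5 UMIs hold fewer members, 83 and 145 in the thinned counts.

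Some log2 ratios changed sign, and the cause was not tested. Without matching, G2 and mitosis was 0.17 in Fcmr+/+ and 0.54 in Fcmr-/-, endothelial markers -0.046 and Retnla 0.27 in Fcmr-/-, and Saa3 -0.23 in Fcmr+/+. Saa3 in Fcmr+/+ was also -0.41 with 3 matched cells, -0.10 against cells with 0 or 1 UMI and -2.30 thinned, and Retnla in Fcmr-/- 0.060 against cells with 0 or 1 UMI and 0.10 with the other matching. In Fcmr+/+ neutrophil markers were 0.060 with 3 matched cells, 0.044 with the other matching and 0.59 thinned, Ccl17 was 0.53 and S100a9 0.16 with the other matching, and with at most 5000 genes S100a9 was 0.35, Mt3 -1.82 and Tnfrsf9 -4.68e-05. Thinned, Saa3 was -0.55, Apold1 -0.49 and Rcn3 -0.11 in Fcmr-/-. Lyve1 in Fcmr+/+ fell between -2.73 and 1.33, with the lowest value thinned, and in Fcmr-/- between 1.76 and 2.78. Ptgds stayed between 1.76 and 3.63 and between 1.58 and 3.97. Of 110 ratios (55 genes in each genotype), 53 kept their sign under every alternative. In Fcmr-/- without matching, Rsad2 was -0.11, Slc2a1 -0.16 and Ifit1 -0.19. In Fcmr+/+, Rsad2 was -0.20 and Retnla 1.56 at 5 UMIs, and thinned, Ccl8 was -0.54 and Ly6a -0.59. Nos2 was lowest without matching, at 0.014 in Fcmr+/+ and 0.14 in Fcmr-/-, as was Inhba in Fcmr+/+ at 0.073. Thinned, list medians in Fcmr+/+ were -1.79 for MHC class II, -0.59 for the type II interferon response, -0.38 for resident-like genes and -0.30 for macrophage identity, of which the first was below 0 in the main comparison too.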

Other observations

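The cells with 30 or more melanoma UMIs, 4 in Fcmr+/+ and 5 in Fcmr-/-, held further genes at levels far above those of cells with 0. In Fcmr-/-, Mgll, which encodes a lipase, stood at 1119 CPM against 6.08 with UMIs in 3 of the 5 cells. Rab38 stood at 347 against 2.07 in 4 of the 5, with 34 of its 40 UMIs in 1 cell. Trpm1 stood at 486 against 3.42 in 2 of the 5, with 53 of its 56 UMIs in 1 cell. In Fcmr+/+, Syt4 stood at 292 against 1.49 CPM in 3 of the 4 cells and Car14, a carbonic anhydrase, at 133 against 0.194 in 3. Cited1 stood at 358 against 0.894, with all 27 UMIs in 1 cell. These genes were chosen after their values were seen, and so few cells give no spread.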
